A study of Mus musculus with 15 samples.

Results

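MLL-AF9 leukaemia libraries titled LTlate were compared with MLL-AF9 leukaemia libraries titled BMTGMP in mouse bone marrow. The samples were chosen by their titles, which put 3 libraries in LTlate and 3 in BMTGMP, 6 of the 15 samples in the series. The study asked how the cell in which the MLL-AF9 fusion is expressed, a haematopoietic stem cell or a granulocyte-macrophage progenitor (GMP), bears on the leukaemia that follows. Both groups are labelled C57BL/6 bone marrow. Per the protocols, a human MLL-AF9 cDNA was placed by targeting of A2Lox-cre embryonic stem cells, chimeras were backcrossed to C57BL/6, and double heterozygous female mice were used. The LTlate libraries are replicates 2, 3 and 4, and the BMTGMP libraries are replicates 1, 2 and 4. The labels do not spell out either title, the age of the mice, the time of sampling, any inducing agent, or whether replicates of a group came from separate mice, so p-values measure the spread between these libraries, which may be technical in part. The suffix of the titles of BMTGMP replicates 1 and 2 is shared (grV), with no meaning given. LTlate replicates 2 and 3 share theirs (grLT3 and grD2) with LTearly replicates 3 and 1. No suffix is shared between LTlate and BMTGMP, so whatever it marks cannot be told apart from the group. Of the other groups in the series, LTearly and wtGMP (4 libraries each) are given as levels beside the comparison. Their libraries were in the same fit, so the p-values rest on the spread within all 4 groups.

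The MLL gene (Kmt2a) encodes a histone methyltransferase, and its fusion to AF9 (Mllt3) ties its DNA-binding part to a protein of the transcription elongation machinery, which keeps HOXA genes and Meis1 active. Long-term haematopoietic stem cells stand at the top of blood formation and hold quiescence, adhesion and drug efflux programmes. GMPs are committed progenitors that fill the primary granules of neutrophils and monocytes with myeloperoxidase and serine proteases.

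Levels are given as CPM (read counts scaled to a common library size) with TMM factors, in the order LTlate replicates 2, 3 and 4 and then BMTGMP replicates 1, 2 and 4. Each log2 fold change is LTlate minus BMTGMP, from 3 libraries a group. Its standard error (after ±) was worked back from the F statistic of the edgeR test, whose spread rests on 14 libraries in 4 groups. A gene was called where the Benjamini-Hochberg adjusted p of edgeR's quasi-likelihood test, over all genes tested, was under 0.05. The libraries held 11569408 to 15093009 counts on named genes in LTlate and 4556108 to 10712743 in BMTGMP, so depth differed with the group. Rank correlations over genes were 0.948 to 0.956 between LTlate libraries, 0.908 to 0.934 between BMTGMP libraries and 0.883 to 0.934 across the groups.

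The genes of the fusion partners did not separate the groups, and the mouse table counts human fusion reads only where they match mouse sequence. Kmt2a was at 315, 277 and 315 CPM in LTlate and at 305, 281 and 444 CPM in BMTGMP (log2 fold change -0.18 ± 0.22, adjusted p = 0.892). Mllt3 was at 4.08, 12.8 and 4.32 CPM in LTlate and at 9.95, 2.33 and 5.66 CPM in BMTGMP (0.23 ± 0.64, adjusted p = 0.978). Neither gene checks the labels.

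The protocol depleted cells carrying Cd5, Cd11b, B220, Gr-1 or Ter119 and then described a GMP gate (Sca-1-, c-Kit+, Cd34+, FcgRII/III high) and a stem cell gate (Sca-1+, c-Kit+, Cd34-, Cd48-, Cd150+). The libraries came from sorted marrow cells, and which gate each leukaemia library passed is not stated. Of the stem cell list 23 of 30 genes were tested, 2 (8.7%, against 1.98% of all genes tested) were called, both higher in LTlate (Erg and Cd34), and the median log2 fold change was -0.12. Kit, the c-Kit receptor named in both gates, was at 7.92, 32.9 and 27.5 CPM in LTlate, against 50.1, 59.3 and 90.7 CPM in BMTGMP (-1.55 ± 0.51, adjusted p = 0.192), and wild-type GMPs (wtGMP) averaged 193 CPM. Mecom, a stem cell transcription factor also known as Evi1, had counts in 1 of 3 LTlate libraries (5.74 CPM in replicate 4) and in 2 of 3 BMTGMP libraries, at 0.837 and 0.838 CPM, while LTearly averaged 27.4 CPM. Summed levels of B cell markers (10.4 to 26 CPM in LTlate, 18.3 to 23.5 CPM in BMTGMP) and of T and NK cell markers (13.9 to 20 CPM and 14.7 to 22.3 CPM in the same order) were low in both groups.

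Of 14542 genes tested, 288 (1.98%) were called. LTlate was higher at 221 (1.52%) and lower at 67 (0.461%), and the median log2 fold change of all genes was -0.06. A DESeq2 fit called 378 higher and 191 lower, which moves the split between the directions. The called falls were the steeper ones, with a median log2 fold change of -2.6 and 40 of 67 genes past 4-fold, against a median of 1.72 and 90 of 221 genes past 4-fold among the rises. The 3 LTlate values lay wholly above the 3 BMTGMP values at 219 of the 221 (Osm is 1 of the exceptions) and wholly below them at all 67. Over all genes tested, 10.8% lay wholly above and 9.65% wholly below. Leaving out 1 library at a time gave 123 to 241 genes called higher and 32 to 67 called lower, with 155 in all without LTlate replicate 2 and 165 without BMTGMP replicate 4. Genes called lower were 32 without LTlate replicate 2, 38 without LTlate replicate 3, 42 without LTlate replicate 4 and 37 without BMTGMP replicate 4. Under every one of 14 settings 87 of the 221 and 23 of the 67 were called.

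**Figure D1:**
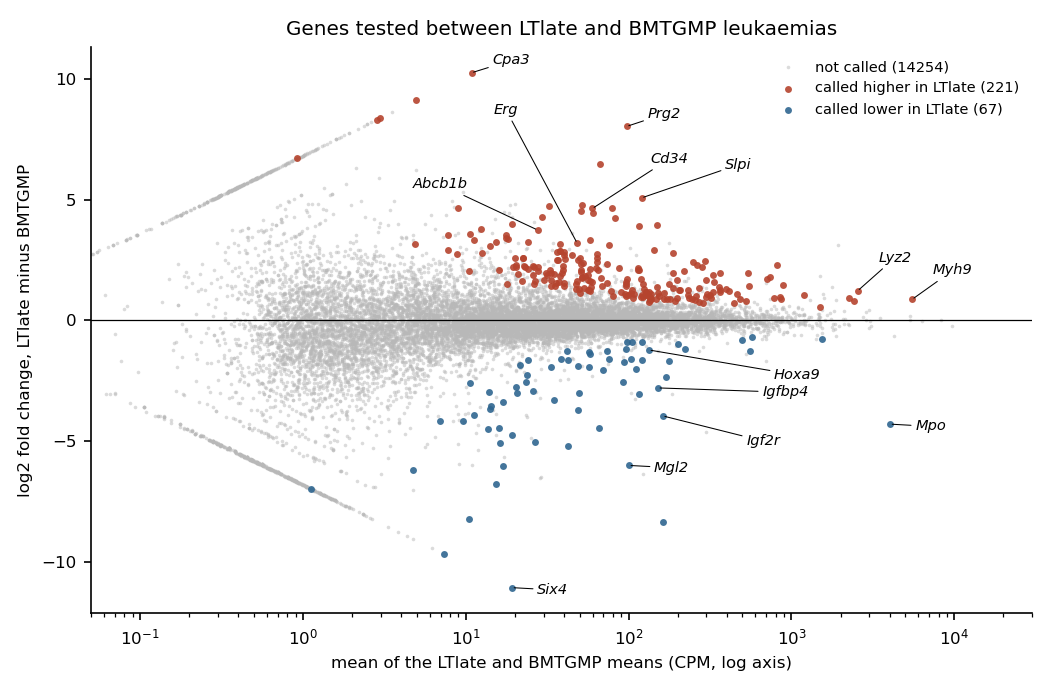
Log2 fold change (LTlate minus BMTGMP) against the mean CPM of the groups (log axis) for the 14542 genes tested, 1 point a gene, with genes called higher in LTlate in red (221) and genes called lower in blue (67). Points along the straight diagonal edges had no counts in 1 group, so their fold change is set by the model and is no measured size. Mpo is the fall at the highest level, and Myh9 and Lyz2 are the rises at the highest levels.

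The 2 called genes of the stem cell list, Cd34 and Erg, were higher in every LTlate library than in any BMTGMP library. Of the 23 tested, LTlate lay wholly above at 4 and wholly below at 2, Kit among the latter (10.8% and 9.65% of all genes). Cd34, a sialomucin of stem and progenitor cells and of blood vessels, was at 93.8, 105 and 147 CPM in LTlate, against 4.19, 3.37 and 6.7 CPM in BMTGMP. Every LTlate library was far above every BMTGMP library (4.63 ± 0.56, adjusted p = 0.000473), while wtGMP averaged 249 CPM and LTearly 32.6 CPM. In the protocol the GMP gate took Cd34+ cells and the stem cell gate Cd34- cells, so a high Cd34 level does not mark that stem cell gate. The part of sorting in this difference was not tested. Erg, an ETS factor of stem cell maintenance, was at 78.4, 89.8 and 92.6 CPM in LTlate and at 5.02, 16.6 and 6.7 CPM in BMTGMP (3.20 ± 0.37, adjusted p = 7.1e-06). Its means in LTearly (71 CPM) and wtGMP (39.2 CPM) lay between those of LTlate and BMTGMP. In bulk RNA, a smaller share of cells that express a gene and less RNA per cell cannot be told apart.

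Abcb1b, a P-glycoprotein that pumps drugs out of the cell, was even within each group, at 55.1, 42.1 and 56.7 CPM in LTlate and at 3.91, 3.76 and 3.77 CPM in BMTGMP (3.74 ± 0.37, adjusted p = 1.07e-06). Bcl2, the survival protein of the mitochondrial membrane, was at 61.8, 94 and 128 CPM in LTlate and at 36.8, 14.7 and 12.4 CPM in BMTGMP (2.13 ± 0.38, adjusted p = 0.00236). Of 27 tested drug transport and detoxification genes, 2 (7.41%, against 1.98% of all genes) were called, both higher (Abcb1b and the glutathione reductase Gsr). LTlate lay wholly above at 7 and wholly below at 2, against 10.8% and 9.65% of all genes. Gsr was not called without BMTGMP replicate 1 or 4 or LTlate replicate 2 (adjusted p = 0.065, 0.0864 and 0.0554) or in a fit of the 6 libraries alone (0.062). Of 17 tested Bcl2 family genes, 1 (5.88%) was called (Bcl2). Abcg2, another efflux pump, had the opposite order at 1.39, 0.0871 and 2.23 CPM in LTlate and 12.9, 22.2 and 20.5 CPM in BMTGMP, without a call (-3.88, adjusted p = 0.116).

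**Figure D2:**
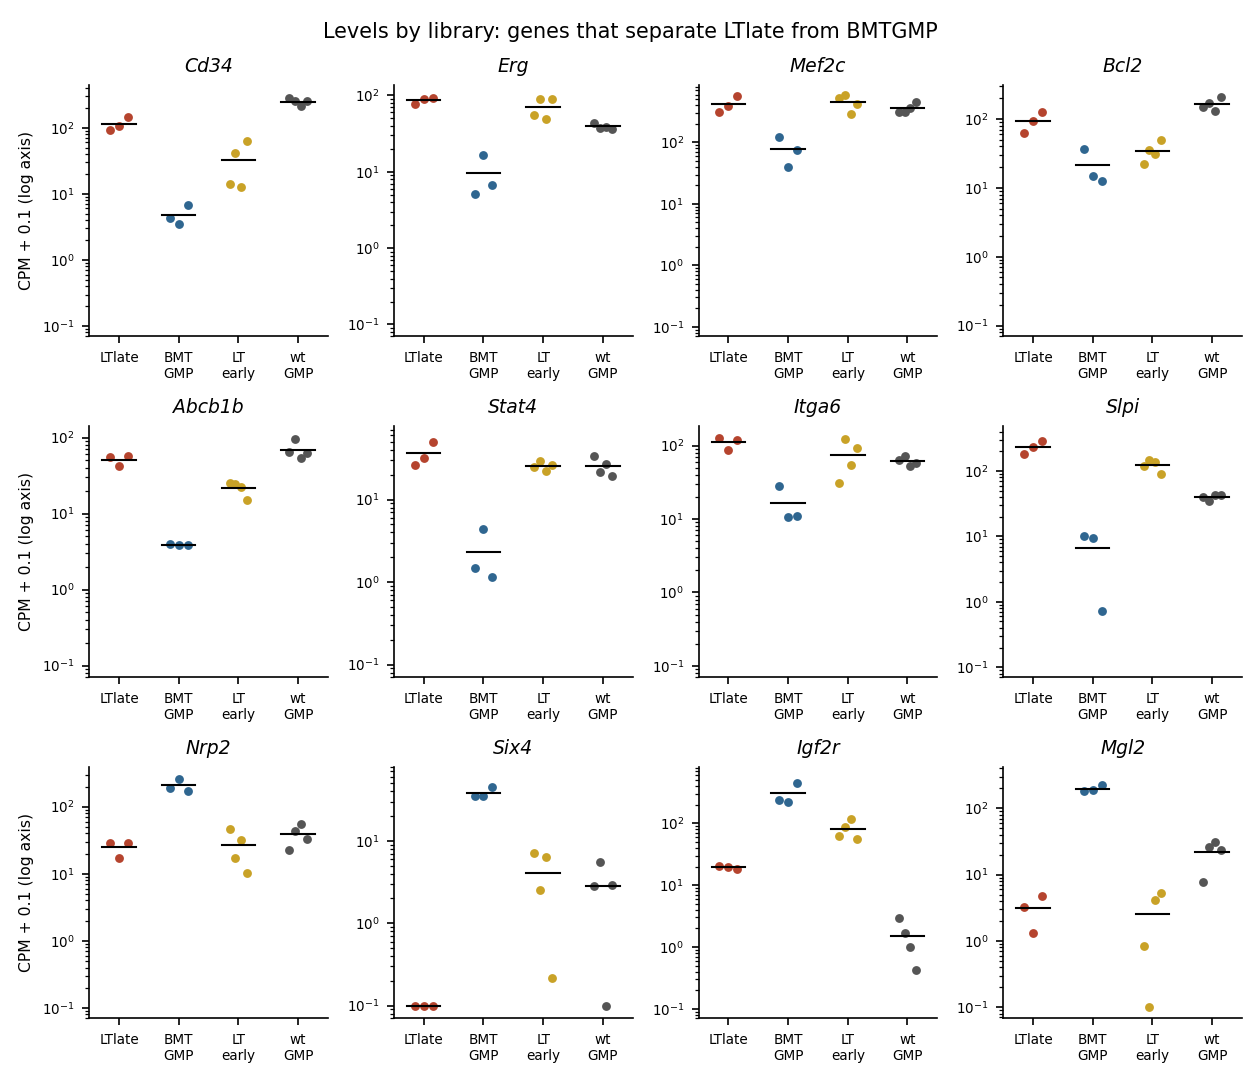
Levels of 12 genes in CPM (log axis, with a small constant added so that 0 can be drawn) in LTlate, BMTGMP, LTearly and wtGMP, 1 dot a library and a line at the mean of each group. Six4 averages under 5 CPM in every group but BMTGMP, and Cd34, Erg, Mef2c and Abcb1b are lower in BMTGMP than in the other 3 groups on average.

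The bases just before the start of genes with large changes in either direction are shown because they were searched for binding motifs of blood cell transcription factors. Each line is the plus strand, 5′ to 3′, of 200 bases before a gene start, from RefSeq on GRCm38.p6 (the counts were made on mm9), and capitals mark motif matches. The stretches are chr1:194938621-194938820 for Cd34 and chr5:8797947-8798146 for Abcb1b, which were higher in LTlate, and chr11:87793584-87793783 for Mpo and chr11:70130157-70130356 for Mgl2, which were lower.
Cd34: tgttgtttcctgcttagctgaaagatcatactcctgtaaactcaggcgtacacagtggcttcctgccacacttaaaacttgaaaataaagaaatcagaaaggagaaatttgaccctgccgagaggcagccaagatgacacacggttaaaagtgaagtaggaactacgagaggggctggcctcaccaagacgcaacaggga
Abcb1b: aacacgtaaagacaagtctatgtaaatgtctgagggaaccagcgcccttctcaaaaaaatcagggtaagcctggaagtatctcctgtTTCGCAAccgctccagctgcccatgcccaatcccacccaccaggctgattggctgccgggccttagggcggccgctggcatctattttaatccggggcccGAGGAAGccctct
Mpo: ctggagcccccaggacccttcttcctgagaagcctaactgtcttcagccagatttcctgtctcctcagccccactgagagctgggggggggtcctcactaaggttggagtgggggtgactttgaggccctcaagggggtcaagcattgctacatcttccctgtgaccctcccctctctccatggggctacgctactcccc
Mgl2: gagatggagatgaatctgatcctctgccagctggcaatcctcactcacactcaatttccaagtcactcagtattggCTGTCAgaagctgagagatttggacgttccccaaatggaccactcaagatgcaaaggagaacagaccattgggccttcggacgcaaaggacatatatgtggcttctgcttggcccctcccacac
In the Abcb1b stretch the capitals are a C/EBP match (TTGCGAA, here on the minus strand) and a PU.1 match (GAGGAAG), in the Mgl2 stretch they are a MEIS match (TGACAG, on the minus strand), and the Cd34 and Mpo stretches held none of the letters searched. Over 300-base windows (250 before to 50 after the start), the PU.1 letters stood on either strand in 21.7% of 175 promoters of genes called higher, in 17.6% of 51 of genes called lower and in 15.8% of 11651 of all genes tested. The shares in the same order were 8%, 9.8% and 7.88% for C/EBP (TTGCGCA or else TTGCGAA or else TTGCAAA), 10.3%, 7.84% and 9.18% for GATA factors (AGATAA) and 22.3%, 15.7% and 20.4% for MEIS (TGACAG). They were 21.7%, 17.6% and 21.1% for the ZEB E-box (CACCTG) and 3.43%, 1.96% and 2.48% for HOX-PBX (TGATTTA), and none of these shares was tested. Median GC content was 62.7% in promoters of genes called higher and 59.3% in the other 2 sets.

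Genes known as targets of MLL fusions moved in both directions. Of 33 such genes 30 were tested, 2 were called higher in LTlate (Mef2c and Bcl2) and 3 lower, Six4 and Hoxa9 among them. The called share was 16.7%, against 1.98% of all genes, and the median log2 fold change was -0.14. Mef2c, a MADS box factor linked to homing and invasion of MLL leukaemia cells, was at 310, 386 and 564 CPM in LTlate and at 121, 39.8 and 76.5 CPM in BMTGMP (2.41 ± 0.37, adjusted p = 0.00225), and its levels in LTearly (456 CPM) and wtGMP (357 CPM) were like those of LTlate.

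The homeobox gene Six4 was on in BMTGMP and without counts in LTlate. It had no counts in any LTlate library and was at 34.9, 35.3 and 45.3 CPM in BMTGMP, which is at least 477-fold lower against a floor of 3 counts over the LTlate group (adjusted p = 0.00107), and it averaged 3.96 CPM in LTearly and 2.77 CPM in wtGMP. Proteins of this family act with EYA partners and DACH repressors, and Eya1 was at 72.5, 117 and 126 CPM in LTlate and 68.9, 74.9 and 188 CPM in BMTGMP (-0.07 ± 0.52, adjusted p = 0.999). Dach1 was not called (0.12 ± 0.55, adjusted p = 0.99). Eya1 and Dach1 are in the list of MLL targets.

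Among the HOXA genes and Meis1, the core targets of the fusion, only Hoxa9 was called, lower in LTlate. Hoxa10 and Meis1 lay wholly below BMTGMP without a call, and the other HOXA genes are not shown here. Hoxa9 was at 63.2, 96.8 and 80 CPM in LTlate, against 186, 127 and 249 CPM in BMTGMP (-1.23 ± 0.31, adjusted p = 0.0293), and wtGMP averaged 16.1 CPM. That call was lost under 7 of the settings, among them without BMTGMP replicate 1 or 4 (adjusted p = 0.0585 and 0.219) and without LTlate replicate 2 or 4 (adjusted p = 0.213 and 0.0963). Meis1, the HOX cofactor, was at 87.7, 148 and 127 CPM in LTlate and at 217, 197 and 290 CPM in BMTGMP (-0.96 ± 0.45, adjusted p = 0.423). The groups did not overlap at Meis1, and a fit of these 6 libraries alone called it (adjusted p = 0.0337). Hoxa10 (-0.80 ± 0.66, adjusted p = 0.754) and the cofactor Pbx3 (0.35 ± 0.41, adjusted p = 0.886) were not called.

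Of 41 adhesion and migration genes, all tested, 12 (29.3%) were called higher and none lower, against 1.52% and 0.461% of all genes, and the median log2 fold change was 1.13. The list was chosen with earlier results of these data known. LTlate lay wholly above BMTGMP at 22 of the 41 and wholly below at none, against 10.8% and 9.65% of all genes. With 1 library left out the list had 6 to 10 calls, with the 6 seen without BMTGMP replicate 4 and without LTlate replicate 2; Itga6, Ceacam1, Alcam and Iqgap2 were called under every setting.

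Among the cell surface receptors, Itga6, the alpha chain of a laminin receptor, was at 127, 87.1 and 120 CPM in LTlate and at 27.7, 10.4 and 10.9 CPM in BMTGMP (2.75 ± 0.44, adjusted p = 0.00133). Alcam, an immunoglobulin family adhesion molecule, was at 49.6, 41.4 and 39.9 CPM in LTlate and at 1.77, 7.13 and 5.03 CPM in BMTGMP (3.25 ± 0.44, adjusted p = 6.82e-05). Ceacam1, a homophilic adhesion receptor, was at 615, 481 and 436 CPM in LTlate and at 165, 256 and 225 CPM in BMTGMP (1.25 ± 0.20, adjusted p = 0.000473). No library of one group reached the range of the other at any of these genes. Itgam and Itgb2 encode the chains of Mac-1, the integrin that phagocytes use on vessel walls and complement. Itgam was at 1652, 1153 and 1074 CPM in LTlate and at 413, 539 and 467 CPM in BMTGMP (1.45 ± 0.27, adjusted p = 0.00436), and the call was lost without BMTGMP replicate 4 (adjusted p = 0.0573). Its protein, Cd11b, was among the depleted lineage markers of the protocol, and wtGMP averaged 56.7 CPM.

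Of the other members called higher, Adam8 (a surface metalloproteinase) had the largest difference, at 166, 177 and 124 CPM in LTlate and 5.39, 13.4 and 6.29 CPM in BMTGMP (4.22 ± 0.80, adjusted p = 0.0218). Adam8, Ccr1, Itgb7, Selplg, Cd44 and Itgb2 are described here after their values were seen. Cd44, the hyaluronan receptor, was at 573, 470 and 469 CPM in LTlate and at 263, 158 and 252 CPM in BMTGMP (1.17 ± 0.27, adjusted p = 0.0219). The chemokine receptor Ccr1 (3.16 ± 0.72, adjusted p = 0.0414), the gut-homing integrin chain Itgb7 (2.85 ± 0.62, adjusted p = 0.0218), the selectin ligand Selplg (0.96 ± 0.24, adjusted p = 0.0319) and Itgb2 (0.87 ± 0.21, adjusted p = 0.0221) were also called. Each of these 6 calls was lost without LTlate replicate 2, with an adjusted p of 0.0721 for Adam8, 0.0747 for Cd44, 0.15 for Ccr1, 0.0552 for Itgb7, 0.124 for Selplg and 0.0981 for Itgb2. Calls were also lost without BMTGMP replicate 1 (Adam8, Ccr1 and Itgb2), BMTGMP replicate 2 (Cd44, Ccr1, Selplg and Itgb2), BMTGMP replicate 4 (all but Itgb2), LTlate replicate 3 (Adam8, Ccr1 and Itgb7) or LTlate replicate 4 (Ccr1, Itgb7 and Selplg), with an adjusted p of 0.0544 to 0.206. The fit of the 6 libraries alone did not call Itgb7 (0.0839), and summed transcripts did not call Selplg (0.071). Ccr1 lost its call under 10 of the settings, no low-count filter (0.0832) and thinned counts (0.0909) among them. The fractalkine receptor Cx3cr1, at 40.8, 103 and 67.7 CPM in LTlate and 24.6, 20.2 and 29.5 CPM in BMTGMP (1.51 ± 0.35, adjusted p = 0.0151), was not called without LTlate replicate 3 (adjusted p = 0.176) or BMTGMP replicate 2 (0.0643).

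**Figure D3:**
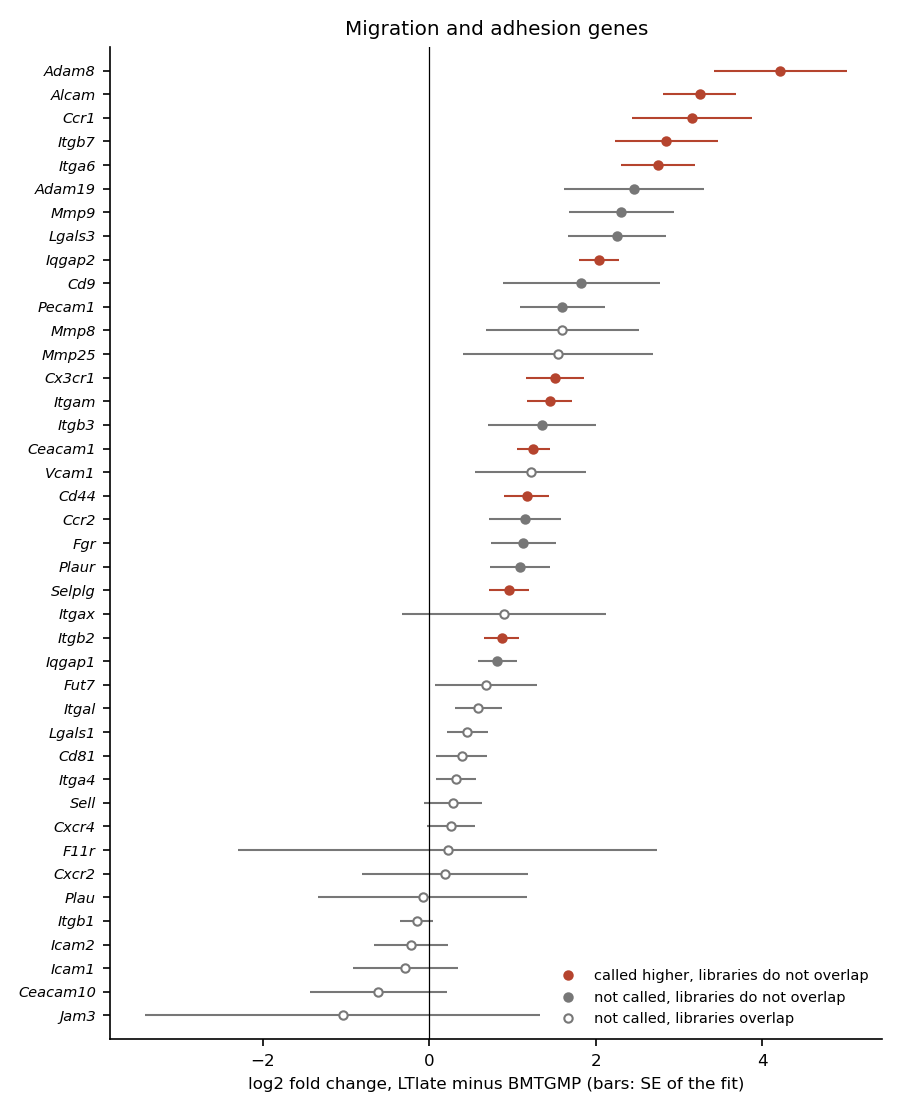
Log2 fold change (LTlate minus BMTGMP, bars 1 standard error) of the 41 migration and adhesion genes, filled where the 3 LTlate and 3 BMTGMP libraries do not overlap and red where called. All 12 called genes lie above 0.

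Several of the rises at the highest levels encode cytoskeletal proteins. Myh9, the heavy chain of non-muscle myosin, was at 8374, 6494 and 6542 CPM in LTlate and at 3288, 4039 and 4361 CPM in BMTGMP (0.87 ± 0.16, adjusted p = 0.00169). The actin crosslinker Flna (0.79 ± 0.16, adjusted p = 0.00653), the actin bundler Lcp1 (1.03 ± 0.21, adjusted p = 0.00523) and Msn (0.94 ± 0.20, adjusted p = 0.0103) were also higher with no overlap. Msn and Rdx belong to 1 family with Ezr, whose proteins tie actin to the membrane, and the 3 did not move alike. Ezr, chosen after its values were seen, was at 1086, 793 and 717 CPM in LTlate and at 225, 266 and 171 CPM in BMTGMP (1.97 ± 0.29, adjusted p = 0.000856). Rdx had the opposite order, at 1113, 1197 and 1083 CPM in LTlate and 1920, 2148 and 1744 CPM in BMTGMP (-0.78 ± 0.16, adjusted p = 0.00749). The calls of Msn and Rdx were lost without LTlate replicate 2 (adjusted p = 0.0664 and 0.071), that of Msn also without BMTGMP replicate 4 (0.0648) and that of Rdx without BMTGMP replicate 2 (0.0636) or LTlate replicate 4 (0.0684).

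The scaffold Iqgap2 and its paralog Iqgap1 were both wholly above BMTGMP in LTlate. Iqgap2 was at 365, 407 and 287 CPM in LTlate and at 97.9, 104 and 53.8 CPM in BMTGMP (2.04 ± 0.24, adjusted p = 7.1e-06), with a wtGMP mean of 819 CPM, and Iqgap1 had a log2 fold change of 0.82 ± 0.23 without a call (adjusted p = 0.0667). Iqgap1 was called under 5 of the settings, among them the fit of the 6 libraries alone (adjusted p = 0.00875), DESeq2 (0.0375) and without LTlate replicate 4 (0.0438), and the difference between the paralogs was not tested. The following genes were chosen after their values were seen. The linker Plec (2.31 ± 0.31, adjusted p = 0.000448), the actin-binding Lsp1 (1.95 ± 0.22, adjusted p = 3.3e-06), the focal adhesion protein Vcl (1.26 ± 0.25, adjusted p = 0.00406) and the collagen-binding integrin Itga1 (3.93 ± 0.43, adjusted p = 6.15e-05) were higher. Cd93, a surface glycoprotein of immature myeloid cells and endothelium, was at 288, 362 and 329 CPM in LTlate and at 57.5, 34.4 and 48.4 CPM in BMTGMP (2.80 ± 0.27, adjusted p = 1.13e-06). Not all genes of motility were higher: the myosin light chain kinase Mylk (-2.55 ± 0.43, adjusted p = 0.00107) and Nrp2, a semaphorin receptor (-3.07 ± 0.46, adjusted p = 0.00109), were lower in LTlate.

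Genes of the epithelial-mesenchymal transition, named in the study's title, gave 1 call between these groups. Of 28 such genes 22 were tested, and only Tcf4 was called higher and none lower (4.55% called, against 1.98% of all genes). DESeq2 called 3, 5 had an unadjusted p under 0.05, and the median log2 fold change was 0.16. At 6 of the 22 LTlate lay wholly above BMTGMP and at none wholly below, against 10.8% and 9.65% of all genes. Tcf4, an E protein also used by plasmacytoid dendritic cells, was at 116, 61.9 and 89.6 CPM in LTlate and at 45.8, 23.3 and 20.5 CPM in BMTGMP (1.57 ± 0.32, adjusted p = 0.00499). Zeb1 was at 8.89, 4.88 and 3.24 CPM in LTlate and at 4.46, 5.19 and 6.5 CPM in BMTGMP (0.08 ± 0.46, adjusted p = 0.993), with means of 48 CPM in LTearly and 36.2 CPM in wtGMP. The groups overlapped at Zeb1. Fibronectin (Fn1), at 6874, 2564 and 937 CPM in LTlate and 624, 315 and 272 CPM in BMTGMP, was wholly above without a call (3.10 ± 0.82, adjusted p = 0.106), and its LTlate values spread widely. Vim was not called either (1.38 ± 0.36, adjusted p = 0.0849).

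Among 12 tested epithelial junction genes, only the desmosome protein Dsp was called (8.33%, against 1.98% of all genes). It was at 95.4, 184 and 177 CPM in LTlate, against 3.07, 0.908 and 15.7 CPM in BMTGMP (4.66 ± 0.92, adjusted p = 0.0281), with a mean of 577 CPM in LTearly and 10.9 CPM in wtGMP. The call was lost under 7 of the settings, among them a fit of the 6 libraries alone (adjusted p = 0.0982) each fit without 1 LTlate library (adjusted p = 0.057 to 0.078) and the fits without BMTGMP replicate 1 (0.105) or 2 (0.0643).

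The primary granule list split, with Mpo and Igfbp4 lower and Lyz2 higher in LTlate. Of 17 primary granule genes tested, 1 was called higher and 2 lower (17.6% called, against 1.98% of all genes), and the median log2 fold change was -0.23. Mpo, which makes hypochlorous acid, was at 247, 394 and 529 CPM in LTlate, against 5728, 9019 and 8310 CPM in BMTGMP (-4.30 ± 0.73, adjusted p = 0.0128). The gap was wide in every library, but the call was lost without LTlate replicate 2 (adjusted p = 0.0895) or LTlate replicate 3 (adjusted p = 0.0731). LTearly averaged 2072 CPM and wtGMP 17482 CPM. Igfbp4 is in the list but is a binding protein of insulin-like growth factors and not a granule enzyme. It was at 39.7, 25.1 and 49.3 CPM in LTlate and at 200, 289 and 306 CPM in BMTGMP (-2.80 ± 0.36, adjusted p = 0.00031).

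The serine proteases of the same granules were lower in each LTlate library without a call. Elane was at 354, 279 and 353 CPM in LTlate and at 932, 1373 and 881 CPM in BMTGMP (-1.69 ± 0.49, adjusted p = 0.142). Ctsg (-1.38 ± 0.39, adjusted p = 0.118) and Prtn3 (-1.29 ± 0.42, adjusted p = 0.197) did not overlap either. DESeq2 called 7 genes of the list. Lysozyme, Lyz2, went the other way, at 4157, 3884 and 2657 CPM in LTlate and 1958, 1531 and 1113 CPM in BMTGMP (1.22 ± 0.23, adjusted p = 0.00423), and wtGMP averaged 479 CPM.

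**Figure D4:**
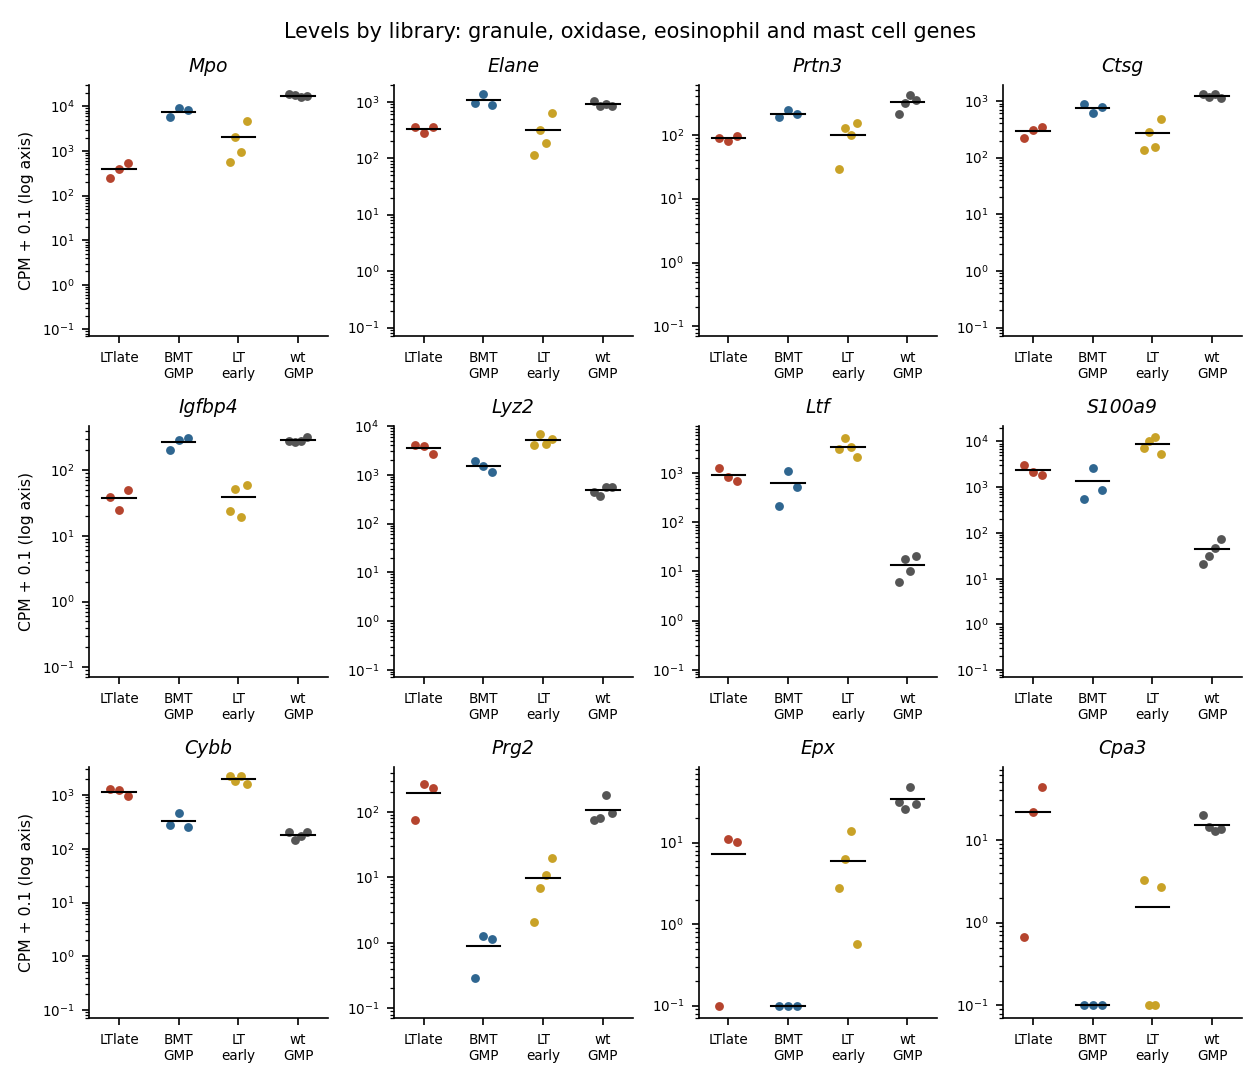
Levels of 12 granule, phagocyte, eosinophil and mast cell genes in CPM (log axis, with a small constant added) in LTlate, BMTGMP, LTearly and wtGMP, 1 dot a library and a line at the mean. Mpo and Igfbp4 are lower in LTlate than in BMTGMP and wtGMP, and Lyz2 and Cybb are highest in the groups titled LT.

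Late neutrophil genes leaned higher in LTlate, with a median log2 fold change of 0.99. Of 26 tested, 2 were called higher (Anxa1 and Padi4; 7.69%, against 1.98% of all genes) and none lower. The summed level of the list was 8047 to 16206 CPM in LTlate, 2321 to 11296 CPM in BMTGMP and 496 to 626 CPM in wtGMP, so the leukaemias overlapped. S100a9, a calprotectin chain, was at 3091, 2189.5 and 1872 CPM in LTlate, against 548, 2646 and 869 CPM in BMTGMP (0.82, adjusted p = 0.718), and BMTGMP replicate 2 stood among the LTlate libraries. Ltf, lactoferrin, had the same overlap (0.60, adjusted p = 0.84). Anxa1, which restrains neutrophil recruitment, was at 1238, 1150 and 852 CPM in LTlate and at 234, 524 and 226 CPM in BMTGMP (1.72 ± 0.26, adjusted p = 0.000473). Padi4, which citrullinates histones, was called (3.11 ± 0.70, adjusted p = 0.0473) but not under 9 of the settings, with an adjusted p of up to 0.158, among them each fit without 1 library except BMTGMP replicate 1. The list had 1 call without BMTGMP replicate 4, LTlate replicate 2 or LTlate replicate 3.

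The NADPH oxidase that phagocytes use for the respiratory burst had 2 of 7 genes called higher (28.6%, against 1.98% of all genes) and none lower. Cybb, its catalytic chain, was at 1298, 1222 and 943 CPM in LTlate and at 277, 469 and 251 CPM in BMTGMP (1.80 ± 0.22, adjusted p = 1.45e-05), with a mean of 1974 CPM in LTearly and 184 CPM in wtGMP. Ncf1, the organising subunit, was at 1038, 1115 and 938 CPM in LTlate and at 389, 745 and 484 CPM in BMTGMP (0.93 ± 0.22, adjusted p = 0.0163), a call lost without BMTGMP replicate 1 (adjusted p = 0.0913), BMTGMP replicate 4 (0.0834) or LTlate replicate 3 (0.0544). Of 28 monocyte and macrophage genes tested, 2 (7.14%) were called higher (Cybb and Cx3cr1), none was called lower, and the median log2 fold change was 1.18. That count was 7 without BMTGMP replicate 1, and 1 without BMTGMP replicate 2 or without LTlate replicate 3. The list's summed level was 3949 to 5916 CPM in LTlate and 1744 to 3523 CPM in BMTGMP. The part of other mature myeloid cells in these differences was not tested.

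The lectin Mgl2, known from macrophages and dendritic cells, was among the steepest falls. It was at 3.18, 1.22 and 4.66 CPM in LTlate, against 182, 188 and 223 CPM in BMTGMP (-6.01 ± 0.85, adjusted p = 0.00257), and wtGMP averaged 22 CPM. Its neighbour on chromosome 11 and near-identical paralog Clec10a was lower too (-4.51 ± 1.19, adjusted p = 0.047), but reads of the pair can be split between them, and the Clec10a call was lost under 9 of the settings, with any 1 library left out included (adjusted p up to 0.188). Mpo and Tspoap1, a scaffold gene next to it on chromosome 11, were also both lower. Tspoap1 was at 317, 248 and 408 CPM in LTlate and at 543, 782 and 1037 CPM in BMTGMP (-1.28 ± 0.22, adjusted p = 0.00107), and whether the counting used strand is not stated.

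The eosinophil and mast cell lists gave 1 call each, both higher, which is 10% of the tested members of each list against 1.98% of all genes. Prg2, the eosinophil major basic protein, was at 76.3, 270 and 235 CPM in LTlate, against 0.186, 1.17 and 1.05 CPM in BMTGMP (8.03 ± 0.99, adjusted p = 0.00133), and wtGMP averaged 108 CPM. Cpa3, a mast cell carboxypeptidase, was at 0.571, 21.3 and 43.3 CPM in LTlate and had no counts in any BMTGMP library, at least 179-fold higher against a floor of 3 counts over the group (adjusted p = 0.0146). That fold is of pooled counts and does not hold for LTlate replicate 2, which was far below the other 2 at Cpa3. The Cpa3 call was lost without any 1 of the BMTGMP libraries (adjusted p = 0.0533 to 0.0899). Epx, the eosinophil peroxidase, was at 0, 11.1 and 10.1 CPM in LTlate and 0 in BMTGMP (adjusted p = 0.126). Of the eosinophil list, 10 of 12 genes were tested, 1 was called (4 by DESeq2, 5 at an unadjusted p under 0.05) and the median log2 fold change was 0, and of the basophil and mast cell list, 10 of 15 were tested, 1 was called and the median was 0.40. Its defining proteases Prss34, Cma1, Tpsab1 and Tpsb2 and the IgE receptor chain Fcer1a had no counts in either group. The summed level was 170 to 455 CPM in LTlate and 48.9 to 248 CPM in BMTGMP for the eosinophil list, and 79.6 to 159 CPM and 89.5 to 154 CPM for the basophil and mast cell list.

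Other rises among the 10 with the largest log2 fold change were of varied function. Slpi, a secreted inhibitor of neutrophil elastase, was at 183, 235 and 284 CPM in LTlate and at 9.95, 9.34 and 0.629 CPM in BMTGMP (5.07 ± 0.55, adjusted p = 0.000172). Lpl, lipoprotein lipase, was at 85.4, 192 and 116 CPM in LTlate and at 1.86, 0.13 and 2.51 CPM in BMTGMP (6.49 ± 0.87, adjusted p = 0.00133). Both were called under every setting, and Lpl was the only gene called of 26 in the cholesterol and lipid list (3.85%, against 1.98% of all genes). Wwc2 (4.66 ± 0.75, adjusted p = 0.000473) was stable too. The ferlin Myof (4.77 ± 1.0, adjusted p = 0.0351) lost its call with any 1 library left out (adjusted p up to 0.202). The ephrin receptor Epha2 (4.75 ± 1.0, adjusted p = 0.0185) lost it without BMTGMP replicate 4 (0.171), in the fit of the 6 libraries alone (0.0577) and with a block for replicate number (0.216). Oaf, AA467197 and Eps8l1 had no counts in BMTGMP and were at least 76.8-fold, 44.8-fold and 42.2-fold higher (adjusted p = 0.0115, 0.0166 and 0.0013); AA467197 was not called without LTlate replicate 2 (adjusted p = 0.0543) or with counts thinned to 1 depth (0.0598).

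Among the other steep falls, Klra17, a lectin-like receptor, had no counts in LTlate and was at 12.3, 11.2 and 20.3 CPM in BMTGMP, at least 174-fold lower (adjusted p = 0.00423). The kinesin Kif21a had 2 counts in LTlate against 426 in BMTGMP, a pooled ratio of 0.00283 (95% interval 0.000342 to 0.0103, counting error only; adjusted p = 0.00393), and was not called with transcripts summed per gene (adjusted p = 0.0521). Ccdc149 was at 1.14, 0.349 and 0 CPM in LTlate and at 18.5, 45 and 37.1 CPM in BMTGMP (-6.05 ± 1.06, adjusted p = 0.00133). Sdk1, an adhesion molecule of synapses (-6.76 ± 1.42, adjusted p = 0.00971), was not called without BMTGMP replicate 1 (adjusted p = 0.175) or LTlate replicate 2 (0.0751). Plaat3 (adjusted p = 0.0193), the ephrin receptor Epha7 (-5.20, adjusted p = 0.0218) and the splicing factor Rbfox2 (-5.08 ± 1.12, adjusted p = 0.0109) lost their calls without LTlate replicate 2 (adjusted p = 0.114, 0.151 and 0.0725) or LTlate replicate 4 (0.0928, 0.122 and 0.0546). Without BMTGMP replicate 2 the calls of Plaat3 and Epha7 were lost (0.0809 and 0.0552), without BMTGMP replicate 4 those of Epha7 and Rbfox2 (0.0834 and 0.1), and without LTlate replicate 3 that of Epha7 (0.0882). Rbfox2 was not called with summed transcripts (0.109), nor Epha7 with a block for replicate number (0.0703).

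The receptors of insulin-like growth factors moved in opposite directions, a set chosen after its values were seen. Igf2r, which clears IGF2 and carries lysosomal enzymes, was at 20.7, 19.7 and 18.2 CPM in LTlate and at 241, 223 and 452 CPM in BMTGMP (-3.96 ± 0.38, adjusted p = 3.26e-06). LTearly averaged 80.8 CPM and wtGMP 1.41 CPM, so the highest level was in BMTGMP. Igf1r, the signalling receptor, was at 287, 221 and 300.0 CPM in LTlate and at 66.6, 145 and 108 CPM in BMTGMP (1.34 ± 0.25, adjusted p = 0.0023). The insulin receptor Insr was not called (0.16, adjusted p = 0.963). Dusp6, Spred1 and Stat4 were also chosen after their values were seen. Dusp6, a phosphatase of ERK (2.85 ± 0.45, adjusted p = 0.000448), and Spred1, an inhibitor of the ERK pathway (2.56 ± 0.49, adjusted p = 0.00276), were higher, as was the interleukin-12 signal transducer Stat4, at 25.9, 32.1 and 50.2 CPM in LTlate and 1.4, 4.28 and 1.05 CPM in BMTGMP (3.98 ± 0.51, adjusted p = 2.73e-05). The PI3K regulatory subunit Pik3r1 was lower (-0.81 ± 0.19, adjusted p = 0.0153), a call lost under 5 of the settings, among them without BMTGMP replicate 1 or 4 or LTlate replicate 2 or 3 (adjusted p = 0.113, 0.0551, 0.0941 and 0.151).

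Inflammatory genes gave 4 calls, all higher, of 29 tested in the NF-kappaB list (13.8%, against 1.98% of all genes, median log2 fold change 0.76). Nfkbiz, a nuclear cofactor of NF-kappaB, was at 62.6, 60 and 85.4 CPM in LTlate and at 11.9, 9.6 and 9.85 CPM in BMTGMP (2.72 ± 0.39, adjusted p = 0.000344). The chemokine Ccl6 was at 92.3, 97.2 and 43.7 CPM in LTlate and at 11.4, 13.4 and 11.3 CPM in BMTGMP (2.69 ± 0.48, adjusted p = 0.00258). Both held under every setting, whereas the inflammasome sensor Nlrp3 (2.09 ± 0.46, adjusted p = 0.0156) lost its call without BMTGMP replicate 2 (adjusted p = 0.0598) or 4 (0.139), and the cytokine gene Osm, whose groups overlapped (1.51 ± 0.39, adjusted p = 0.038), lost it under 7 of the settings, without BMTGMP replicate 1 or 4 or LTlate replicate 2 or 4 included (adjusted p = 0.0721 to 0.294). The list had 2 calls without BMTGMP replicate 4. Of 24 pattern recognition receptors none was called, 6 had an unadjusted p under 0.05, DESeq2 called 3, and the median was 1.02. LTlate lay wholly above BMTGMP at 11 of these 24 and wholly below at none, against 10.8% and 9.65% of all genes.

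Immediate early genes also gave 4 calls, all higher, of 28 tested (14.3%, against 1.98% of all genes, median 0.70). But none of the 28 was called without BMTGMP replicate 4, 1 without LTlate replicate 2 and 2 without BMTGMP replicate 2. Egr1 was at 122, 144 and 63.7 CPM in LTlate and at 31, 14.5 and 9.43 CPM in BMTGMP (2.56 ± 0.49, adjusted p = 0.00948). The quiescence factor Klf2 (1.40 ± 0.31, adjusted p = 0.0126), the nuclear receptor Nr4a1 (2.19 ± 0.51, adjusted p = 0.0218) and the antiproliferative Btg1 (1.18 ± 0.28, adjusted p = 0.0199) were the others. Beyond BMTGMP replicate 4, Egr1 was lost without BMTGMP replicate 2 (adjusted p = 0.0598), Klf2 without LTlate replicate 2 or 4 (0.0543 and 0.0618), Nr4a1 without BMTGMP replicate 1 or LTlate replicate 2 or with thinned counts (0.0533, 0.0825 and 0.0998) and Btg1 without BMTGMP replicate 2 or LTlate replicate 2 (0.0547 and 0.158). Btg1 was also lost in the fit of the 6 libraries alone (0.065) and with summed transcripts (0.0512). Egr1, Klf2 and Nr4a1 are also the 3 called (12%) of 25 tested in the list of myeloid fate factors. That list had 1 to 5 calls with 1 library left out: 5 without BMTGMP replicate 1, 2 without BMTGMP replicate 2 or LTlate replicate 4, and 1 without BMTGMP replicate 4 or LTlate replicate 2.

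Of 8 tested S100 genes, which encode small calcium-binding proteins, 3 were called higher (37.5%, against 1.98% of all genes) and none lower. S100a10, the annexin partner, was at 115, 133 and 65.9 CPM in LTlate and at 38.3, 16.3 and 18.6 CPM in BMTGMP (2.09 ± 0.33, adjusted p = 0.000435), and it alone was called with any 1 library left out. S100a6 was at 139, 88.1 and 64.7 CPM in LTlate and at 1.12, 7.26 and 4.61 CPM in BMTGMP (4.51 ± 0.93, adjusted p = 0.0288). S100a4, linked to metastasis, was at 132, 136 and 81.5 CPM in LTlate and at 3.35, 9.47 and 2.93 CPM in BMTGMP (4.45 ± 0.96, adjusted p = 0.0396). The last 2 lie close together on chromosome 3 with 1 coding gene between them, and no library overlapped at either. Without 1 library, S100a6 had an adjusted p of 0.0584 to 0.167 and S100a4 of 0.0684 to 0.215, so neither was called with any 1 library left out.

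**Figure D5:**
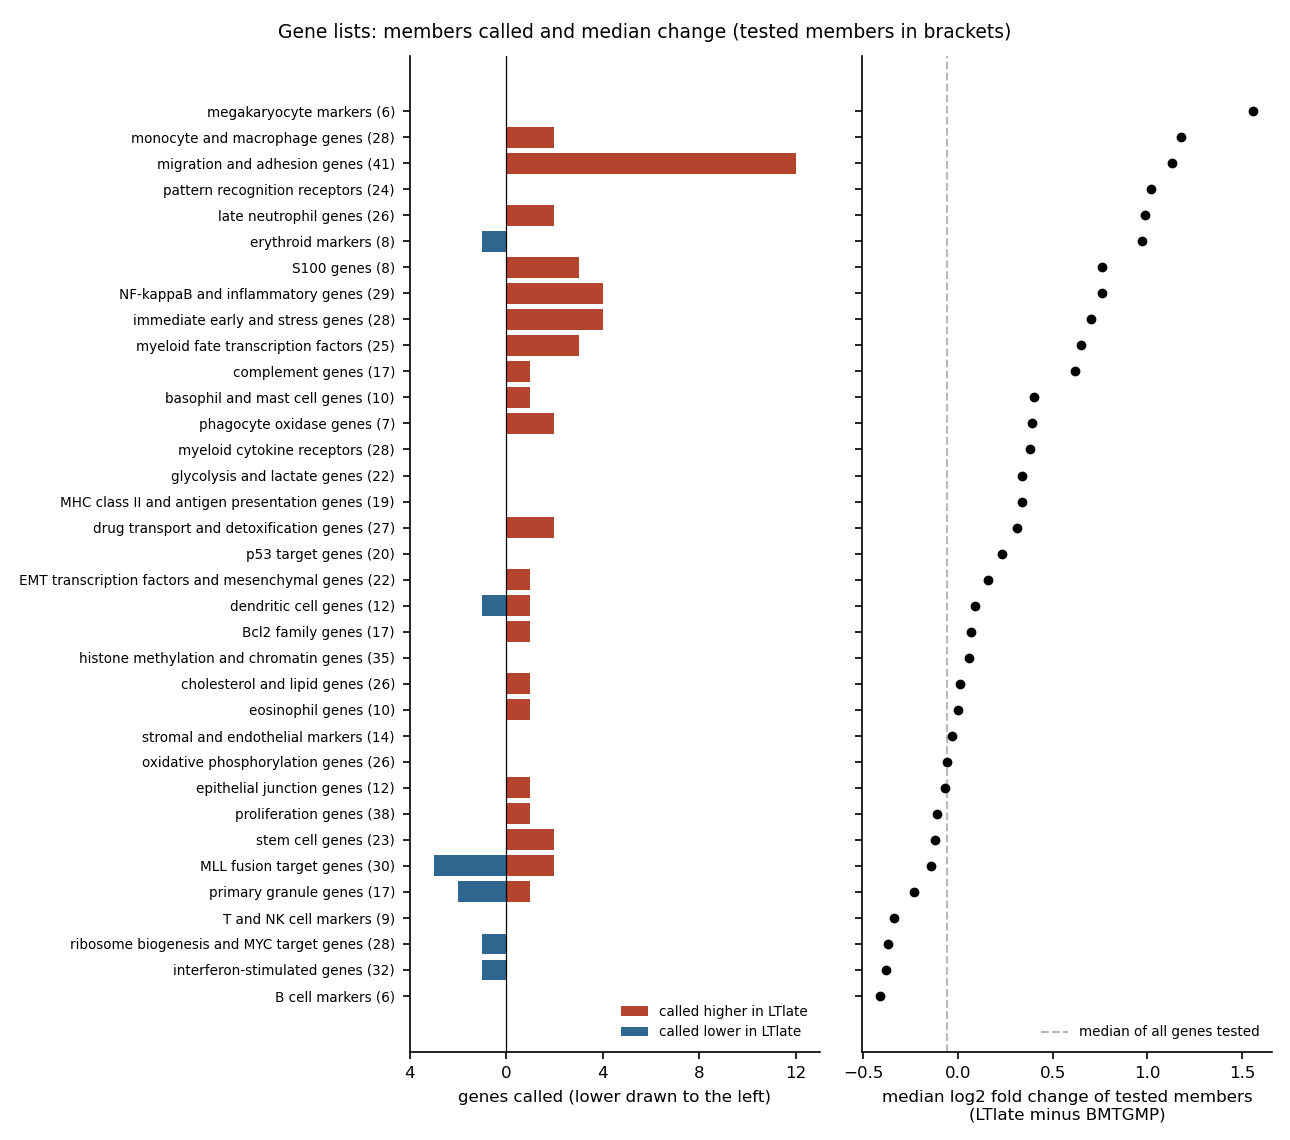
For each gene list, the left panel gives the number of members called higher (red) or lower (blue) in LTlate, and the right panel gives the median log2 fold change of its tested members, with a dashed line at the median of all genes tested (-0.06). Migration and adhesion genes hold the most calls, 12, all higher.

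Proliferation, biosynthesis and energy lists gave 1 call or none each. The called share was 2.63% for proliferation and 3.57% for ribosome biogenesis, against 1.98% of all genes tested. Of 38 proliferation genes 1 was called higher (the G1 cyclin Ccnd1, 2.26 ± 0.58, adjusted p = 0.0348, lost under 7 of the settings and with any 1 library except LTlate replicate 2 left out, with an adjusted p of up to 0.236), and the median was -0.11. Mki67 was at 7683.5, 8481 and 8701 CPM in LTlate and at 8585, 8556 and 7671 CPM in BMTGMP (0.00 ± 0.16). Of 28 genes of ribosome biogenesis and MYC targets, 1 was called lower (the nucleolar Nolc1, -0.69 ± 0.18, adjusted p = 0.041, lost under 7 of the settings and with any 1 library except BMTGMP replicate 4 left out, with an adjusted p of up to 0.343), and the median was -0.37. LTlate lay wholly below BMTGMP at 7 of these 28 and wholly above at none, against 9.65% and 10.8% of all genes. None of 26 oxidative phosphorylation genes was called (1 at an unadjusted p under 0.05, 0 by DESeq2), and none of 22 glycolysis genes (5 at an unadjusted p under 0.05, 2 by DESeq2). The glycolysis genes lay wholly above at 9 of 22 and wholly below at 1 (10.8% and 9.65% of all genes), with a median of 0.34. Their summed level was 4254 to 4434 CPM in LTlate and 3018 to 4072 CPM in BMTGMP, which did not overlap.

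Interferon-stimulated genes had 1 call, lower, of 32 tested (3.12%, against 1.98% of all genes), and the median log2 fold change was -0.38. LTlate lay wholly below BMTGMP at 8 of the 32 and wholly above at 2, against 9.65% and 10.8% of all genes. The summed level of the list was 759 to 831 CPM in LTlate and 976 to 1048.5 CPM in BMTGMP, which did not overlap. Ifit2, an inhibitor of viral translation, was at 17.5, 23.7 and 21.1 CPM in LTlate and at 63.1, 81.8 and 49 CPM in BMTGMP (-1.64 ± 0.38, adjusted p = 0.0168), lost under 5 of the settings, among them without BMTGMP replicate 2 or any LTlate library (adjusted p = 0.0535 to 0.13). The transferrin receptor Tfrc was the 1 call among 8 tested erythroid genes (12.5%). It was at 27.4, 49.1 and 53.2 CPM in LTlate and 84.1, 140 and 89 CPM in BMTGMP (-1.27 ± 0.29, adjusted p = 0.016). Its call was lost without BMTGMP replicate 2 (adjusted p = 0.133) or LTlate replicate 2 (0.164). No gene was called among 28 cytokine receptors (7 at an unadjusted p under 0.05, 5 by DESeq2), 35 chromatin genes (8 and 1), 20 p53 targets (4 and 2), 19 antigen presentation genes (2 and 0), 14 stromal and endothelial markers (2 and 1) or 6 megakaryocyte markers (1 and 0). The receptor kinase Flt3, at 51.2, 40.6 and 22 CPM in LTlate and 10.9, 0.778 and 0.21 CPM in BMTGMP (3.19, adjusted p = 0.128), was among the members that did not overlap and were not called.

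Set beside wild-type GMPs, the called genes mostly had a wtGMP mean between the means of the leukaemias. Among the 221 called higher, the wtGMP mean was above both at 33 (14.9%), between at 118 (53.4%) and below both at 70 (31.7%). Among the 67 called lower it was above both at 11 (16.4%), between at 44 (65.7%) and below both at 12 (17.9%). The shares over all genes tested were 34.7%, 27.0% and 38.2%, and a gene called for a wide gap between the leukaemias leaves more room between them. On a log2(CPM + 1) scale the wtGMP mean was nearer to LTlate at 36.2% of the rises and 46.3% of the falls, against 46.2% of all genes.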

How the data were processed

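RNA was sequenced from mouse bone marrow with ScriptSeq low-input libraries from 150 ng of total RNA, per the labels' protocols. The authors deposited 1 table of expected counts per RefSeq transcript on mm9, with up to 100 hits a read, per the file headers. Values that are not whole show that reads with several hits were divided. The submitters' processing notes list Bowtie 0.9.9.1 without its role, and strand use is not given in the sources used here. Of 28847 transcripts, 26092 were matched to gene names (25977 by a RefSeq table and 115 by GENCODE), and unnamed transcripts held 3.51 to 4.16% of counts. The transcript with the highest mean stood for each gene, and expected counts were rounded, as 13.75% were not whole (tolerance 1e-06). Genes were tested with edgeR 4.0.16 (robust quasi-likelihood, TMM, filterByExpr, limma 3.58.1, R 4.3.3) on 14 libraries in 4 groups, with 14542 genes kept and Benjamini-Hochberg adjustment at 0.05. The 15th library, whose title and column disagree on its group, entered no comparison, and 1 column of no sample was not used. The code was tested on simulated data. Alternatives were DESeq2 1.42.0, the 2 groups alone, other filters and scalings, thinning to 1 depth, summed transcripts, a replicate block, and each library left out. Named genes were, among genes called without overlap and at 5 CPM or more in the higher group, the 10 largest changes each way and the 6 highest levels each way, then up to 4 called genes per list and a few of known interest. Some genes that the rule names are not reported here. The members and lists were chosen with earlier results of these data known. Folds against a group at 0 are of counts pooled over each group with a floor of 3 counts, so they leave out the spread between libraries. Depth limits the lowest genes.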

Additional observations from a re-analysis of the deposited data

How the results depend on the processing

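Of 288 genes called, DESeq2 called all 288 among 569 (378 higher, 191 lower, 66.4% higher against 76.7%), and a fit of the 6 libraries alone called 253 of them among 454 (319 higher, 135 lower). With other filters, scaling or thinned counts, 276 to 349 genes were called in all, and with summed transcripts 235. Leaving out 1 library gave 155 to 308 calls (123 to 241 higher, 32 to 67 lower). LTlate and BMTGMP share only replicate numbers 2 and 4, whose deviations from their group means had r = -0.029 and -0.0485 over all genes. So few pairs, taken over all genes, cannot show whether a number marks a shared batch, and pairing was not tested further. With the replicate block 238 genes were higher and 61 lower (299 in all, 232 shared), and 11 of the named genes lost their call. Of 74 named genes 66 were called, 32 under every setting and 34 not, and none of the 74 changed sign with a call. Meis1 was called in the fit of the 6 libraries (adjusted p = 0.0337) and Kit by DESeq2 (adjusted p = 0.0224). The causes were not tested. With 3 libraries a group, and fewer counts in BMTGMP, low genes of that group are measured least well.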

Other observations

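The library that entered no comparison is titled LTearly but its column in the table is named LTlate. Its levels were 0.133 CPM for Cpa3, 2.4 CPM for Prg2, 0 for Six4, 6.79 CPM for Cd34, 14.4 CPM for Abcb1b and 7.06 CPM for Mgl2. It had 6615 CPM of Lyz2, 2296 CPM of Mpo, 1918 CPM of Cybb, 1526 CPM of Itgam and 527 CPM of Dsp. Transcription factors were at 109 CPM for Erg, 92.4 CPM for Mecom, 64.6 CPM for Zeb1, 122 CPM for Hoxa9 and 414 CPM for Meis1.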
